A study of Drosophila melanogaster with 6 samples.

Results

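Genes for synaptic vesicle release, vesicle recycling, and transmitter synthesis, transport and clearance were examined in the heads of flies fed a high-fat diet (HFD) or normal food (ND). The members were chosen by name, as 32 *Drosophila* genes with a known place in this machinery, and 27 of them were found by their FlyBase identifier among the 11922 genes in the files. The other 5, *nSyb*, *ChAT*, *Synj*, *EndoA* and *Rbp*, were not analysed here. Wild-type (WT) *Oregon-R* females, virgins by the study's methods, were sampled at the age of 5 days after 5 days on HFD, which is ND with coconut oil added, or after 5 days on ND. Each diet had 3 biological replicates, each a pool of heads with the tissue attached to them, and poly(A) RNA was sequenced. The values are FPKM (fragments per kilobase of transcript, scaled to the sequencing depth of the library), which allow levels to be compared between genes of different length.

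A chemical synapse releases transmitter when calcium entering the nerve terminal binds synaptotagmin and a primed vesicle fuses through the SNARE proteins. The vesicle membrane is then taken back by clathrin adaptors and dynamin, and refilled by a transporter specific to the transmitter. In the fly brain acetylcholine is the main excitatory transmitter, GABA the main inhibitory one and glutamate is used at motor synapses and by central neurons, while glia take up glutamate and turn it into glutamine. In RNA from whole heads, fewer neurons and less RNA per neuron cannot be told apart.

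Across the 27 members no gene passed the test between diets, and *lap*, a clathrin adaptor gene, stood nearest to it. *lap* averaged 74.3 ± 5.81 FPKM in HFD heads and 52.1 ± 6.09 FPKM in ND heads (SD, n = 3 each). Of the members, 19 had a log2 difference above 0 and 8 below it (HFD minus ND), where 42.8% of the 8362 genes tested were above 0, and the median was 0.046 for the members and -0.027 for all genes tested. With limma on log2(FPKM + 1) and Benjamini-Hochberg adjustment over all genes tested, 0 of 27 members had an adjusted p under 0.05, a threshold that 0.0478% of all genes passed. At an unadjusted p under 0.05, 1 member was higher in HFD heads, against 3.11% of all genes, and 0 were lower, against 3.6% of all genes. The exact permutation test over the 20 ways to assign the samples cannot go below a two-sided p of 0.1, and it reached that value for *lap* and for *Ace*, the acetylcholinesterase gene. The 3 HFD samples lay above the 3 ND samples for 1 member, *lap*, against 4.54% of all genes, and below them for 1 member, *Ace*, against 8.07% of all genes.

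Estimated from the step size of low values in the files, the libraries held about 5300000 to 11770000 fragments, with HFD replicate 2 the smallest. Markers of neurons, glia, photoreceptors, muscle and fat body were present, as summed levels, in all 6 samples. Midgut digestive enzyme markers (11 genes) summed to 12770, 6388 and 16761 FPKM in HFD replicates 1 to 3, against 19217, 20324 and 73.7 FPKM in ND replicates 1 to 3. In ND replicate 3, 9 of the 11 were under 1 FPKM, and the amylase genes *Amy-p* and *Amy-d* stood at 35.0 and 36.8 FPKM. Whether this sample held less gut tissue or less enzyme RNA per cell was not tested. ND replicate 3 also correlated least with the others, at 0.842 to 0.920 over log2 values, where the other pairs lay between 0.934 and 0.979. For the genes whose difference rests on HFD replicate 2 or ND replicate 3, the value without that sample is also given.

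The members covered a wide range of levels, and all 27 passed the filter of a mean of 0.5 FPKM. At the top stood *Gs2*, which encodes the cytoplasmic glutamine synthetase used by glia, at 709 to 826 FPKM in HFD heads and 664 to 837 FPKM in ND heads. Next came *cpx*, the gene of complexin, which holds assembled SNAREs until calcium arrives, at 600 to 756 FPKM in HFD heads and 589 to 776 FPKM in ND heads. The ranges of these top members overlapped, and both lay well clear of the next gene, the glial glutamate transporter gene *Eaat1*, at 145 to 167 FPKM in HFD heads and 135 to 180 FPKM in ND heads. From *Eaat1* down to *Rim*, each gene in the order had a range over the 6 samples that overlapped its neighbour's, except that the range of *Syx1A* lay above that of *VGAT*. At the low end were *Rim*, an active zone scaffold gene, at 15.7 to 20.2 FPKM in HFD heads and 14.1 to 21.9 FPKM in ND heads, and *Sytbeta*, a synaptotagmin family gene, at 7.21 to 8.90 FPKM in HFD heads and 7.33 to 10.2 FPKM in ND heads. In level, 26 of 27 members were above the median of all genes tested and 11 were above the 90th percentile. Partners in one SNARE complex were not at one level, as *Snap25* stood at 95.3 to 116 FPKM in HFD heads while the syntaxin *Syx1A* stood at 27.7 to 32.8 FPKM in the same heads.

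**Figure D1:**
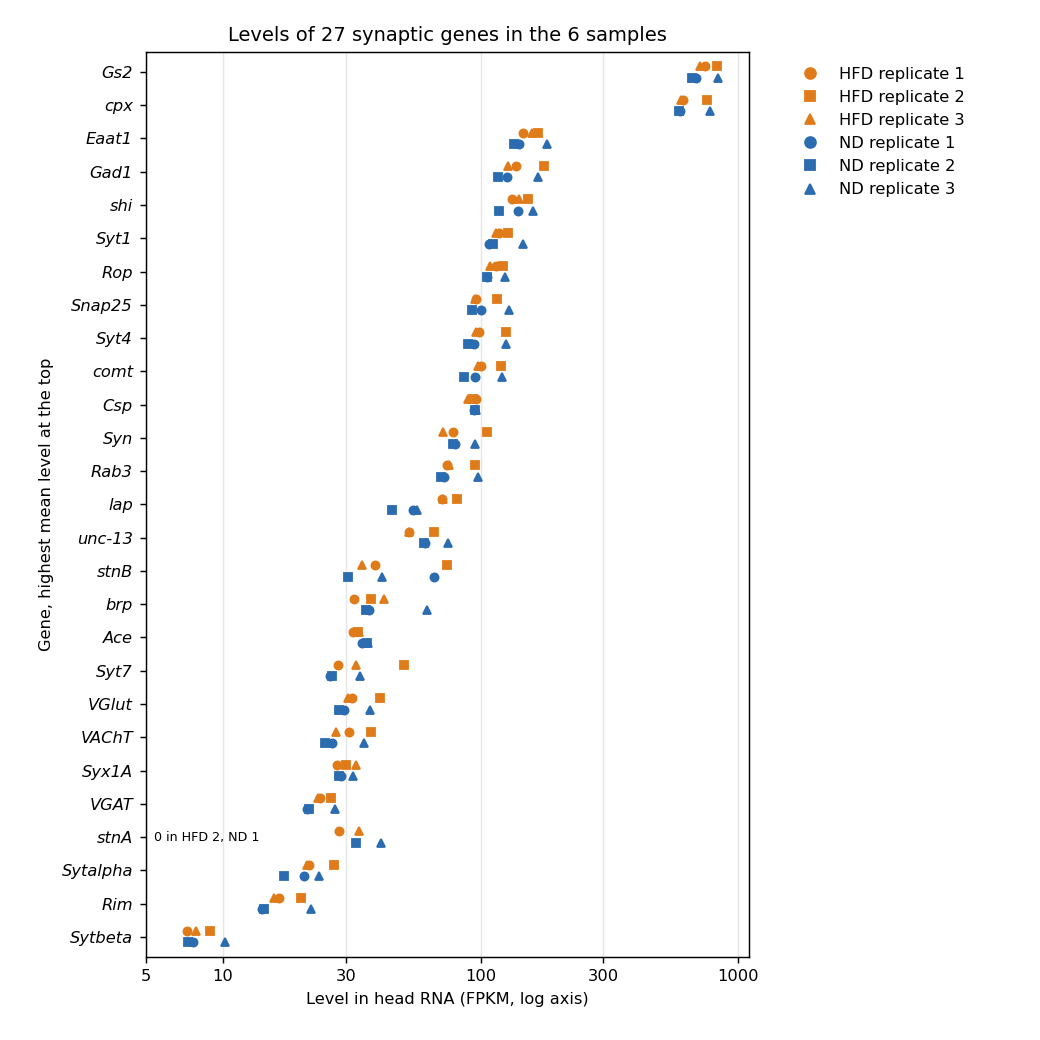
FPKM on a log axis (horizontal) of the 27 members (rows, highest mean level at the top) in each of the 6 samples, with HFD points in orange above ND points in blue and one symbol per replicate. *Gs2* and *cpx* stand apart from the rest, the diets overlap in every row but those of *lap* and *Ace*, and HFD replicate 2 (square) and ND replicate 3 (triangle) lie at the right of their groups in most rows.

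The recycling genes retrieve vesicle membrane after fusion. *lap* encodes the fly AP180, an adaptor that assembles clathrin on membrane and helps to recover the vesicle SNARE synaptobrevin. In the Ensembl annotation of build BDGP6 it lies on chromosome 3R at positions 7186994 to 7200941, on the plus strand, and shares no exonic base with another gene. Its level was 70.7, 81.0 and 71.3 FPKM in HFD replicates 1 to 3, against 54.4, 45.2 and 56.7 FPKM in ND replicates 1 to 3. The lowest HFD sample was above the highest ND sample, and with both HFD replicate 2 and ND replicate 3 left out the log2 difference was 0.51. The log2 difference was 0.51 (SE 0.11, 95% interval 0.23 to 0.79), a fold of 1.43 between the means, with an unadjusted limma p of 0.00456 and an adjusted p of 0.465. Under 17 alternatives, which include leaving out each sample in turn, the difference stayed between 0.41 and 0.60. The filters, variance model, replicate block and row choice left the difference unchanged and could alter only its p. Over the 17, the unadjusted limma p lay between 0.00112 and 0.0257, while the adjusted p was 0.129 at its lowest.

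Dynamin, the GTPase that pinches the vesicle off, is encoded by *shi*, whose level was 132, 152 and 141 FPKM in HFD replicates 1 to 3, against 140, 118 and 160 FPKM in ND replicates 1 to 3. The diets overlapped, and the log2 difference was 0.031 (SE 0.13, 95% interval -0.29 to 0.35). Taken within each sample, the ratio of *lap* to *shi* was 0.535, 0.532 and 0.507 in HFD replicates 1 to 3, against 0.388, 0.383 and 0.355 in ND replicates 1 to 3. Within a diet the ratio varied little, with SDs of 0.0150 in HFD heads and 0.0180 in ND heads, and the diets did not overlap. This ratio was formed after the values were seen and is a description.

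**Figure D2:**
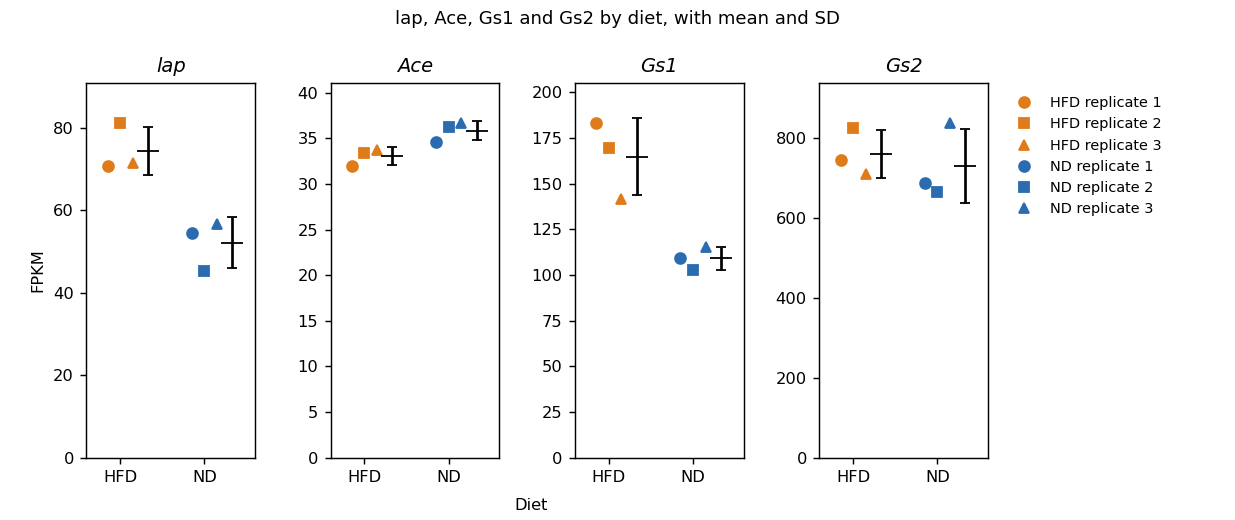
FPKM (vertical axis, starting at 0) of *lap*, *Ace*, *Gs1* and *Gs2* in the 3 HFD samples (orange, left) and the 3 ND samples (blue, right), with one symbol per replicate and the mean ± SD as a black bar. The HFD samples of *lap* and *Gs1* all lie above the ND samples, those of *Ace* all lie below by a small margin, and those of *Gs2* overlap.

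The *stoned* locus gives one messenger RNA with 2 reading frames, *stnA* and *stnB*, whose products act in vesicle endocytosis. In the BDGP6 annotation both genes have the same 8332 exonic bases, on the minus strand of chromosome X from 22980722 to 23004648, so reads cannot be told apart between them. *stnA* was listed at 28.2, 0 and 33.8 FPKM in HFD replicates 1 to 3, against 0, 32.8 and 40.9 FPKM in ND replicates 1 to 3. *stnB* was listed at 38.8, 74.2 and 34.7 FPKM in HFD replicates 1 to 3, against 65.8, 30.5 and 41.4 FPKM in ND replicates 1 to 3. In the 2 samples where *stnA* was listed at 0, *stnB* was at its highest, and elsewhere the values were split between the pair. Summed, the locus stood at 67.0, 74.2 and 68.5 FPKM in HFD replicates 1 to 3, against 65.8, 63.3 and 82.3 FPKM in ND replicates 1 to 3. The sum averaged 69.9 ± 3.80 FPKM in HFD heads and 70.5 ± 10.3 FPKM in ND heads (SD, n = 3 each), with a log2 difference of -0.0030 (SE 0.12, 95% interval -0.30 to 0.29, limma adjusted p = 0.998). The separate log2 differences, -0.16 with an SE of 2.00 for *stnA* (exact permutation p = 0.8, limma p = 0.939 unadjusted and 0.998 adjusted) and 0.087 with an SE of 0.39 for *stnB*, say nothing of the diets.

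**Figure D3:**
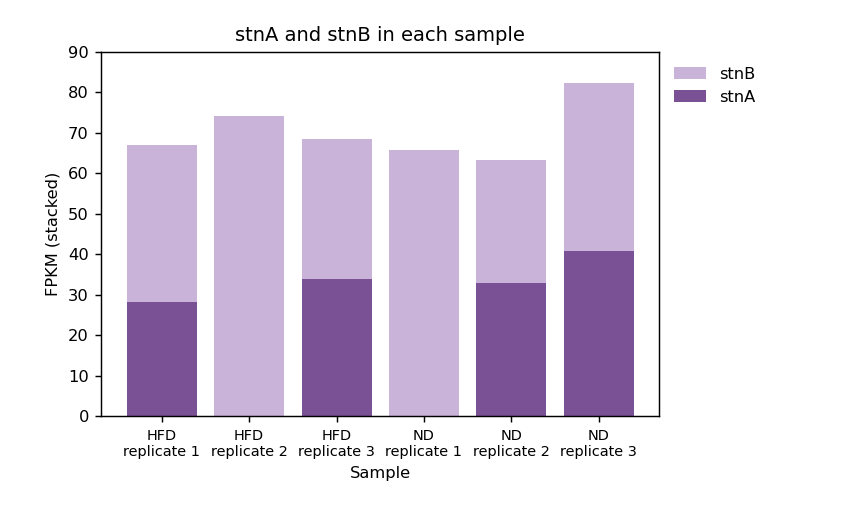
FPKM of *stnA* (dark) and *stnB* (light), stacked, in HFD replicates 1 to 3 (left) and ND replicates 1 to 3 (right). The split between the pair jumps from sample to sample, while the stacked height stays between 63.3 and 82.3 FPKM.

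Among the transmitter genes, *Ace* encodes the enzyme that breaks down acetylcholine in the synaptic cleft. Its level was 31.97, 33.4 and 33.7 FPKM in HFD replicates 1 to 3, against 34.6, 36.3 and 36.6 FPKM in ND replicates 1 to 3. All HFD samples lay under all ND samples, by a margin of less than 1 FPKM between the nearest pair. The log2 difference was -0.11 (SE 0.067, 95% interval -0.28 to 0.050), with an unadjusted limma p of 0.140 and an adjusted p of 0.893. *VAChT*, which loads acetylcholine into vesicles, stood at 30.8, 37.7 and 27.4 FPKM in HFD replicates 1 to 3, against 26.4, 24.9 and 35.2 FPKM in ND replicates 1 to 3. The diets overlapped, with HFD replicate 2 and ND replicate 3 the highest samples, and the log2 difference was 0.15 (SE 0.17, exact permutation p = 0.5, limma p = 0.429 unadjusted and 0.986 adjusted). The *VAChT* difference was 0.027 without HFD replicate 2 and 0.30 without ND replicate 3. Of its exonic bases, 606 are shared on the same strand with *ChAT*, the gene of the enzyme that makes acetylcholine, so its values may hold reads of both.

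*VGlut*, which loads glutamate, stood at 31.6, 40.8 and 30.6 FPKM in HFD replicates 1 to 3, against 29.4, 28.1 and 37.1 FPKM in ND replicates 1 to 3. *Gad1*, which makes GABA from glutamate, stood at 137, 176 and 128 FPKM in HFD replicates 1 to 3, against 127, 117 and 168 FPKM in ND replicates 1 to 3. The highest samples were again HFD replicate 2 and ND replicate 3, and the diets overlapped for both genes. The log2 differences were 0.12 for *VGlut* (SE 0.16, exact permutation p = 0.5, limma p = 0.477 unadjusted and 0.996 adjusted) and 0.10 for *Gad1* (SE 0.18, exact permutation p = 0.5, limma p = 0.596 unadjusted and 0.998 adjusted). The ratio of *Gad1* to *VGlut* within a sample was between 4.18 and 4.32 in HFD heads and between 4.16 and 4.52 in ND heads, a narrow range beside that of the levels themselves. *VGAT*, which loads GABA, stood at 23.3 to 26.2 FPKM in HFD heads and 21.1 to 27.2 FPKM in ND heads (log2 difference 0.072, SE 0.12). The ratio of *VGAT* to *VGlut* was less steady, at 0.750, 0.641 and 0.761 in HFD replicates 1 to 3, against 0.720, 0.768 and 0.732 in ND replicates 1 to 3. Without HFD replicate 2 the differences were -0.0073 for *VGlut* and -0.033 for *Gad1*, and without ND replicate 3 they were 0.24 and 0.26 for the same genes.

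Of the glial clearance genes, *Eaat1* stood at 145, 167 and 158 FPKM in HFD replicates 1 to 3, against 141, 135 and 180 FPKM in ND replicates 1 to 3. *Gs2* stood at 746, 826 and 709 FPKM in HFD replicates 1 to 3, against 689, 664 and 837 FPKM in ND replicates 1 to 3. Both were highest in ND replicate 3, and the diets overlapped. The log2 differences were 0.053 for *Eaat1* (SE 0.13, exact permutation p = 0.8, limma p = 0.703 unadjusted and 0.998 adjusted) and 0.064 for *Gs2* (SE 0.12, exact permutation p = 0.6, limma p = 0.610 unadjusted and 0.998 adjusted). Without HFD replicate 2 they were 0.0066 for *Eaat1* and 0.0026 for *Gs2*, and without ND replicate 3 they were 0.18 for *Eaat1* and 0.17 for *Gs2*.

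Among the calcium sensors, *Syt1*, the sensor of fast synchronous release, stood at 118, 128 and 115 FPKM in HFD replicates 1 to 3, against 108, 112 and 146 FPKM in ND replicates 1 to 3. The HFD samples lay inside the ND range, and the log2 difference was -0.010 (SE 0.13, 95% interval -0.34 to 0.32, exact permutation p = 1, limma p = 0.940 unadjusted and 0.998 adjusted). *Syt7*, a slower sensor that limits the vesicle supply for release, had the second largest positive difference of the members. It stood at 27.9, 50.5 and 32.8 FPKM in HFD replicates 1 to 3, against 26.1, 26.4 and 34.0 FPKM in ND replicates 1 to 3. HFD replicate 2 stood apart, and the log2 difference of 0.32 (SE 0.24, exact permutation p = 0.3, limma p = 0.227 unadjusted and 0.942 adjusted) was 0.079 without it. *Sytalpha*, another family member, stood at 21.5, 27.0 and 21.1 FPKM in HFD replicates 1 to 3, against 20.6, 17.3 and 23.5 FPKM in ND replicates 1 to 3, with overlap between the diets and a log2 difference of 0.18 (SE 0.15, exact permutation p = 0.4, limma p = 0.281 unadjusted and 0.944 adjusted). The *Sytalpha* difference was 0.068 without HFD replicate 2, 0.066 without ND replicate 2 and 0.28 without ND replicate 3. *Syt4*, a synaptotagmin that in fly larvae acts on the postsynaptic side of the neuromuscular junction, stood at 95.8 to 125 FPKM in HFD heads and 89.4 to 125 FPKM in ND heads (log2 difference 0.052, SE 0.17). *Sytbeta* had a log2 difference of -0.056 (SE 0.15).

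In the fusion machinery, *Snap25* stood at 96.2, 116 and 95.3 FPKM in HFD replicates 1 to 3, against 101, 92.4 and 129 FPKM in ND replicates 1 to 3. The diets overlapped, with a log2 difference of -0.060 (SE 0.15, exact permutation p = 0.7, limma p = 0.709 unadjusted and 0.998 adjusted). *Syx1A* stood at 27.7, 30.1 and 32.8 FPKM in HFD replicates 1 to 3, against 28.7, 28.2 and 32.1 FPKM in ND replicates 1 to 3. Its samples lay close together on both diets, and its log2 difference was 0.024 (SE 0.094, exact permutation p = 0.8, limma p = 0.810 unadjusted and 0.998 adjusted). The annotation gives it 447 exonic bases in common with *eIF4EHP* on the same strand. *unc-13*, which primes vesicles for fusion, stood at 52.6, 65.8 and 52.6 FPKM in HFD replicates 1 to 3, against 60.9, 60.2 and 74.8 FPKM in ND replicates 1 to 3. HFD replicates 1 and 3 were the lowest samples and HFD replicate 2 lay within the ND range, so the diets overlapped. The log2 difference of *unc-13* was -0.19 (SE 0.13, 95% interval -0.52 to 0.14, exact permutation p = 0.3, limma p = 0.200 unadjusted and 0.942 adjusted). It was -0.30 without HFD replicate 2 and -0.094 without ND replicate 3. Antisense genes cover 25.2% of its exonic bases, and whether strand was used in counting is not given in the sources used here.

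The rest of this group differed little between the diets. *Rop*, the Munc18 partner of syntaxin, stood at 109 to 122 FPKM in HFD heads and 106 to 124 FPKM in ND heads (log2 difference 0.046, SE 0.096), and *cpx* had a log2 difference of 0.011 (SE 0.15). *comt*, the ATPase gene whose product takes used SNARE complexes apart, stood at 97.6 to 120 FPKM in HFD heads and 86.3 to 122 FPKM in ND heads (log2 difference 0.079, SE 0.16). Among 18 ratios between pairs of genes formed after the values were seen, that of *comt* to *Snap25* was 1.04, 1.04 and 1.02 in HFD replicates 1 to 3, against 0.942, 0.935 and 0.942 in ND replicates 1 to 3. Those of *unc-13* to *Rop* were 0.457, 0.537 and 0.484 in HFD replicates 1 to 3, against 0.577, 0.568 and 0.601 in ND replicates 1 to 3. Neither overlapped between the diets, and both are descriptions chosen from the values. The ratios of *lap* to *Syt1*, *lap* to *shi* and *Gs1* to *Gs2* did not overlap either, while the rest of the 18 did. The share of ratios without overlap among other pairs of genes was not computed.

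At the active zone, *brp* encodes Bruchpilot, the scaffold that clusters calcium channels and vesicles at the release site. It stood at 32.1, 37.4 and 42.0 FPKM in HFD replicates 1 to 3, against 36.8, 35.8 and 62.0 FPKM in ND replicates 1 to 3. ND replicate 3 alone was above the HFD range. The log2 difference of -0.23 (SE 0.24, exact permutation p = 0.7, limma p = 0.375 unadjusted and 0.969 adjusted), the most negative among the members, became 0.026 without ND replicate 3. *Rim* had a log2 difference of 0.071 (SE 0.19).

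The vesicle pool genes had differences near 0, with unequal precision. *Csp*, a vesicle chaperone that keeps SNAP-25 folded, stood at 95.5, 93.8 and 89.1 FPKM in HFD replicates 1 to 3, against 94.0, 94.9 and 95.8 FPKM in ND replicates 1 to 3, with the smallest SE of the members at 0.065 and a log2 difference of -0.032. *Syn*, the synapsin gene, whose product tethers the reserve pool, stood at 71.1 to 106 FPKM in HFD heads and 77.8 to 95.2 FPKM in ND heads (log2 difference 0.0013, SE 0.17). *Rab3*, a GTPase on vesicles, stood at 73.8 to 94.7 FPKM in HFD heads and 70.0 to 97.3 FPKM in ND heads (log2 difference 0.034, SE 0.17). With *stnA* and *stnB* set aside, the 95% interval held 0 for 24 of 25 members, *lap* being the exception, and for 22 of the 25 it stayed within 1.5-fold in both directions on the scale of FPKM + 1. The intervals that passed 1.5-fold were those of *lap* (1.17 to 1.73), *Syt7* (0.83 to 1.87) and *brp* (0.57 to 1.28).

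**Figure D4:**
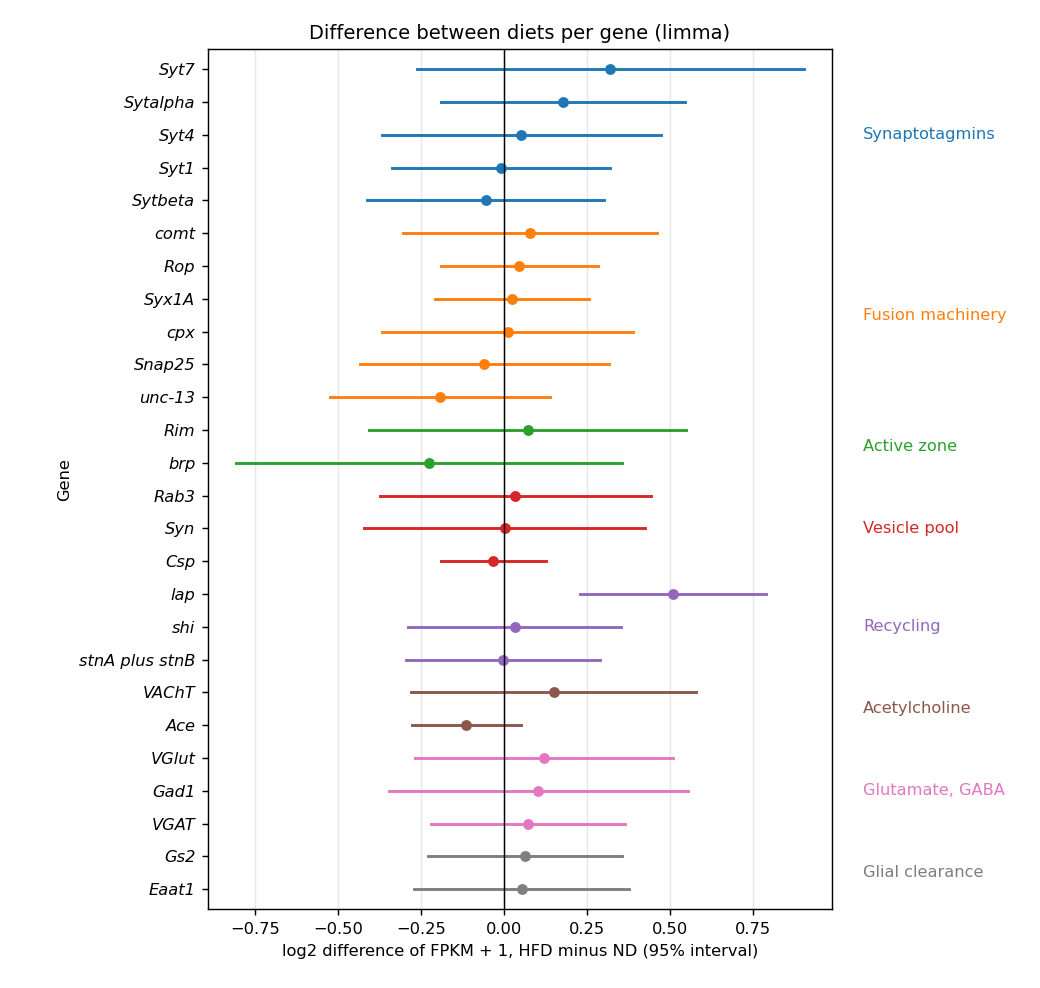
log2 difference of FPKM + 1, HFD minus ND (horizontal axis), with its 95% interval from limma for 25 members and for *stnA* and *stnB* summed (rows), coloured by role. The interval of *lap* alone lies clear of 0, and those of *brp* and *Syt7* are the widest.

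Within each diet, most members were high in the same sample. HFD replicate 2 was the highest of all 6 samples for 8 of 27 members, against 16.8% of all genes, and ND replicate 3 for 18 of 27, against 38.7% of all genes. The remaining gene was *Syx1A*, highest in HFD replicate 3. The 8 include *stnB* and the 18 include *stnA*, whose reads cannot be told apart. HFD replicate 2 and ND replicate 3 took the top places together for 20 of 27 members, neither *stnA* nor *stnB* among them, against 23.4% of all genes. With *stnA* and *stnB* set aside, HFD replicate 2 lay above both other HFD samples for 21 of 25 members, against 41.8% of all genes, and ND replicate 3 above both other ND samples for 25 of 25, against 57.7% of all genes.

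In size, the median member stood in HFD replicate 2 at 1.21 times the mean of HFD replicates 1 and 3, against 1.01 for all genes, and in ND replicate 3 at 1.29 times the mean of ND replicates 1 and 2, against 1.10 for all genes. The summed level of the members was 2986, 3516 and 2944 FPKM in HFD replicates 1 to 3, against 2864, 2760 and 3589 FPKM in ND replicates 1 to 3. The summed level of 7 neuron markers followed it, with 706, 848 and 671 FPKM in HFD replicates 1 to 3, against 698, 666 and 888 FPKM in ND replicates 1 to 3. Sums of 8 photoreceptor markers did so too. They were 24290, 26997 and 23448 FPKM in HFD replicates 1 to 3, against 21858, 21015 and 29928 FPKM in ND replicates 1 to 3. Sums of 6 glia markers were also highest in HFD replicate 2 and ND replicate 3 within their diets, at 406 and 432 FPKM. The largest part of these sums was *nrv2*, at 289 and 309 FPKM. *moody*, *wrapper* and *Mdr65* were also highest in both samples. *Gli* was lowest in both within its diet, at 15.7 and 15.1 FPKM, and *repo* was lowest in HFD replicate 2 but highest in ND replicate 3. Muscle sums were highest in HFD replicate 3 among HFD samples and in ND replicate 3 among ND samples. Fat body sums were highest in HFD replicate 2 among HFD samples and in ND replicate 2 among ND samples. The midgut sums given above ran the other way, with their lowest values in HFD replicate 2 and ND replicate 3. With the midgut marker level as a covariate in the limma fit, 23 of 27 members were above 0. The median log2 difference was then 0.13 for the members and -0.0078 for all genes. In that fit *lap* alone had an unadjusted limma p under 0.05, against 13.4% of all genes.

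Among single members other than *stnA* and *stnB*, the ratio in ND replicate 3 was highest for the 2 active zone genes, at 1.71 for *brp* and 1.54 for *Rim*. A further 5 active zone genes had a median of 1.19 (0.51 for *cac* to 1.42 for *stj*). The ratio was 1.33 at the median of the 5 synaptotagmins, 1.27 at the median of the 6 fusion genes and 1.29 at the median of *VGlut*, *Gad1* and *VGAT*. *Csp* at 1.01 and *Ace* at 1.03 hardly moved in ND replicate 3, and they hardly moved in HFD replicate 2 either, at 1.02 each. Photoreceptor markers and muscle markers were also high in ND replicate 3, with medians of 1.44 and 1.42, while muscle markers stood at 1.02 in HFD replicate 2. Neuron markers, at 1.21 in HFD replicate 2 and 1.32 in ND replicate 3, were close to the members in both.

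**Figure D5:**
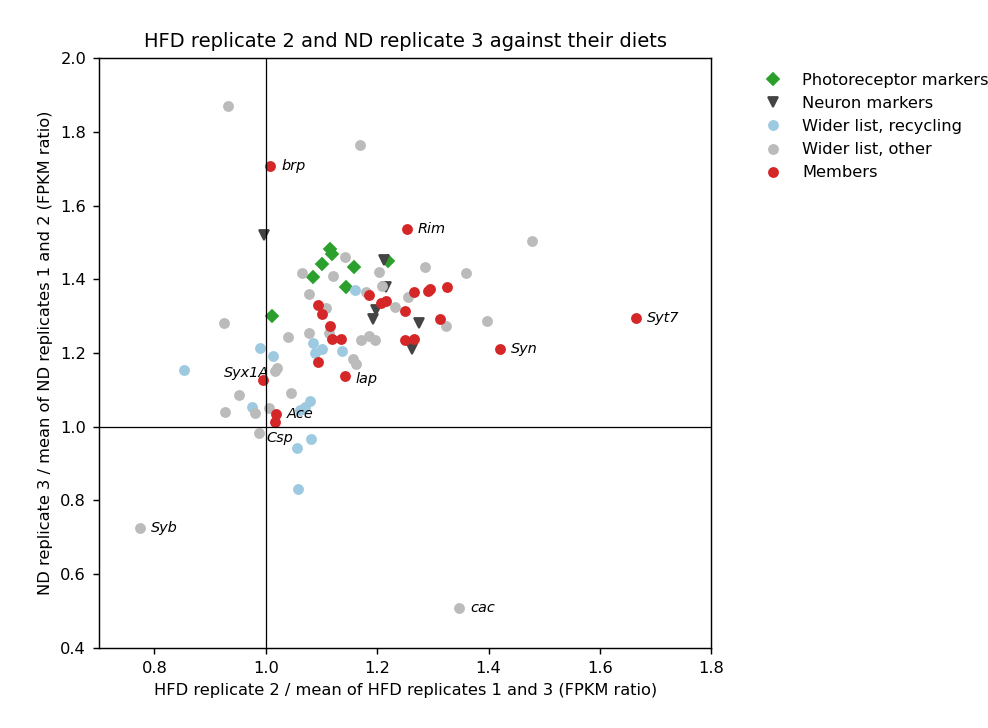
Each point is 1 gene, with its FPKM in HFD replicate 2 over the mean of HFD replicates 1 and 3 on the horizontal axis and its FPKM in ND replicate 3 over the mean of ND replicates 1 and 2 on the vertical axis. Other pathway genes are grey (recycling genes light blue), neuron markers black and photoreceptor markers green. The members (red, *stnA* and *stnB* left out) gather near the neuron markers at 1.21 and 1.29, with *Csp* and *Ace* near 1 on both axes, while *cac* at 0.51 and *Syb* at 0.73 on the vertical axis lie on the other side of 1.

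The direction that most members showed turned on single samples. Without HFD replicate 2, 10 of 27 members were above 0, and their median log2 difference was -0.032, against -0.033 for all genes. Without ND replicate 3, 24 of 27 were above 0, with a median of 0.17, against 0.0074 for all genes. Without ND replicate 2, 8 of 27 were above 0, with a median of -0.028, against -0.051 for all genes. Where the median of the members fell below 0, that of all genes was at least as low. With both HFD replicate 2 and ND replicate 3 left out, an alternative added after the data were seen, 21 of 27 were above 0. Their median was 0.082, against -0.0039 for all genes. There *lap*, higher in HFD heads, and *unc-13*, lower in HFD heads, had an unadjusted limma p under 0.05, against 6.07% and 6.35% of all genes in those directions. When each sample was scaled to the neuron markers, 23 of 27 members were above 0, and *lap*, *Syt7*, *Sytalpha*, *VGlut* and *VAChT* had an unadjusted p under 0.05, all higher in HFD heads, against 5.99% of all genes. That scaling also moved the split over all genes, to 501 higher and 52 lower in HFD heads at an unadjusted p under 0.05, against 260 higher and 301 lower without it. In that scaling the median of all genes stood at 0.070 and that of the members at 0.14. Before scaling, 5 of the 7 neuron markers had a log2 difference below 0, with a median of -0.12. The scaling raised the log2 difference of every gene by the same amount, as from 0.51 to 0.60 for *lap*. In none of the alternatives did a member reach an adjusted p under 0.05.

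The other genes of the pathway were taken from a list of 86 genes, of which 51 were in the files. Of these 27 had a log2 difference above 0 and 24 below, with a median of 0.0073. With limma, 0 of 51 had an adjusted p under 0.05 and 1 had an unadjusted p under 0.05, the mitochondrial glutamine synthetase gene *Gs1*, where 0.0478% of all genes passed the first threshold and 6.71% the second. *Gs1* stood at 183, 170 and 142 FPKM in HFD replicates 1 to 3, against 109, 103 and 115 FPKM in ND replicates 1 to 3. All HFD samples lay above all ND samples, and the means were 165 ± 21.1 FPKM in HFD heads and 109 ± 6.396 FPKM in ND heads (SD, n = 3 each). The log2 difference was 0.58 (SE 0.12, 95% interval 0.30 to 0.87, exact permutation p = 0.1, limma p = 0.00248 unadjusted and 0.431 adjusted), and it lay between 0.50 and 0.69 under the alternatives. Set against its cytoplasmic counterpart within each sample, the ratio of *Gs1* to *Gs2* was 0.245, 0.205 and 0.200 in HFD replicates 1 to 3, against 0.158, 0.155 and 0.138 in ND replicates 1 to 3.

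By group, 7 of 8 further transmitter genes were above 0, against 42.8% of all genes. So were 4 of 9 transmitter receptor genes, 7 of 15 further recycling genes, 8 of 14 further release and vesicle genes, and 1 of 5 further active zone genes. Apart from *Gs1*, all of the 8 transmitter genes overlapped between the diets. These group counts come from the main fit alone and were not repeated with samples left out. The choline transporter gene *ChT* stood at 0.26 (SE 0.19, exact permutation p = 0.3, limma p = 0.225 unadjusted and 0.942 adjusted). Its diets overlapped, and it was highest in HFD replicate 2, at 1.36 times the mean of HFD replicates 1 and 3. The clathrin heavy chain gene *Chc*, whose product *lap* binds, stood at 106, 103.7 and 106 FPKM in HFD replicates 1 to 3, against 101, 99.1 and 105 FPKM in ND replicates 1 to 3. *Chc* overlapped between the diets with a log2 difference of 0.048 (SE 0.064). As a group the recycling genes outside the members stood nearer to 1 than the members did, with median ratios of 1.07 in HFD replicate 2 and 1.15 in ND replicate 3.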

How the data were processed

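Head poly(A) RNA of 3 HFD and 3 ND samples was sequenced on an Illumina platform. The deposited values are FPKM per FlyBase gene, computed by the authors from uniquely mapped reads. The series text calls the unit RPKM, and the submitters' processing notes name HISAT. The build, annotation and counter are not given in the sources used here. The methods and the labels name different NEBNext kits.

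The first row of each identifier was used. Gene symbols came from FlyBase and RefSeq tables, and exon overlaps from the Ensembl BDGP6 annotation. FPKM were tested as log2(FPKM + 1) in limma 3.58.1 (R 4.3.3, moderated with trend, no covariate) with Benjamini-Hochberg adjustment over the 8362 genes that averaged 0.5 FPKM or more. A two-sided exact permutation test was run per gene. The limma fit and the depth estimate were tested on simulated data. Intervals are 95%. No count model was used. Depth was estimated from 6033 single-transcript genes: 64.1 to 71.6% of low values came within 0.15 of whole fragments in each sample, against 30% for values spread evenly, so depths are approximate. The 27 members then rest on at least 182 fragments in each sample, except *stnA*.

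Values by sample with both p-values are given for members with an unadjusted p under 0.05, without overlap between diets, among the 3 largest differences in either direction, or in a core set (*Syx1A*, *Snap25*, *Syt1*, *brp*, *VAChT*, *VGlut*, *Gad1*, *Eaat1*, *Gs2*; *nSyb* and *ChAT* were not analysed here), and for other pathway genes with an unadjusted p under 0.05. Further genes given by sample (*shi*, *Csp*, *Chc* and those of the closing section) and the ratios between genes were chosen after their values were seen. The members and lists were chosen with earlier results of these data known. In 16 other settings 1 choice was changed at a time (pseudocount, filter, scaling, variance model, block, covariate, row choice, or a sample left out), and 2 more were added after the data were seen.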

Additional observations from a re-analysis of the deposited data

How the results depend on the processing

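The FPKM values give no counts, the depths are estimates, and 3 samples a diet leave a median SE of 0.15 on the log2 scale for the members, so small differences were not detectable. The members with an adjusted p under 0.05 numbered 0 under every alternative. The deviations of same-numbered samples from their diet means correlated at 0.31, -0.51 and -0.36, and not every sample correlated best with its own number. Deviations from a mean of 3 samples constrain one another, so these values cannot decide whether the replicate numbers mark pairs. With the replicate block, 1 gene of the whole table had an adjusted p under 0.05, in place of 4, and *lap* kept an unadjusted p under 0.05.

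Over the whole table, genes with an adjusted p under 0.05 numbered 7 with median-ratio scaling, 45 with the midgut markers as a covariate, 12 with HFD replicates 1 and 3 against ND replicates 1 and 2 (added after the data were seen), and 1 to 5 when 1 sample was left out. Genes with an unadjusted p under 0.05 numbered 561, with 1118 under the covariate, 1039 in the comparison of 2 against 2, and 376 to 1044 when 1 sample was left out. Of the members, 5 were higher in HFD heads at an unadjusted p under 0.05 when scaled to the neuron markers, where 553 of all genes passed (501 higher, 52 lower), and 1 was lower in the comparison of 2 against 2. Of the 51 other pathway genes, 2 had an unadjusted p under 0.05 when scaled to the neuron markers, against 6.61% of all genes. Under the covariate 5 of the 51 did, against 13.4% of all genes. In the comparison of 2 against 2 it was 4 of the 51, against 12.4% of all genes. When 1 sample was left out it was 1 to 5 of the 51, against 4.5% to 12.5% of all genes. Members above 0 numbered 8 (without ND replicate 2) to 24 (without ND replicate 3), and their median ran from -0.032 to 0.17.

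The log2 difference changed sign for *Syt1* with median-ratio scaling (0.017), neuron marker scaling (0.087), the covariate (0.077) and 2 against 2 (0.083), for *Snap25* with neuron marker scaling (0.038) and the covariate (0.034), for *brp* with 2 against 2 (0.018), and for *stnA* with the covariate (0.26) and 2 against 2 (2.46). When 1 sample was left out it ran from -0.092 to 0.13 for *Syt1*, -0.16 to 0.079 for *Snap25*, -0.36 to 0.026 for *brp*, -1.90 to 1.51 for *stnA*, -0.033 to 0.26 for *Gad1*, -0.0073 to 0.24 for *VGlut*, -0.035 to 0.081 for *Syx1A*, -0.0007 to 0.17 for *Gs2* and -0.028 to 0.18 for *Eaat1*. The cause was not tested. *lap*, *unc-13*, *Ace*, *Syt7*, *Sytalpha*, *VAChT* and *Gs1* kept their direction under all 17 alternatives. The filters, variance model, replicate block and row choice left these differences unchanged, so they could not alter a direction.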

Other observations

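A few genes near the release machinery had patterns unlike those of the members, and were picked out after their values were seen. *cac*, the gene of the presynaptic calcium channel, stood at 12.9, 16.6 and 11.7 FPKM in HFD replicates 1 to 3, against 13.01, 12.9 and 6.57 FPKM in ND replicates 1 to 3. It was lowest in ND replicate 3, the sample in which the active zone genes *brp* and *Rim* were highest, and its log2 difference of 0.36 (SE 0.28) was 0.064 without that sample. *stj*, which encodes a partner subunit of the channel, was by contrast highest in that sample, at 56.3 FPKM against 39.6 and 39.7 FPKM in ND replicates 1 and 2. *Syb*, the synaptobrevin used in all tissues, stood at 145, 103 and 122 FPKM in HFD replicates 1 to 3, against 136, 144 and 102 FPKM in ND replicates 1 to 3, and was lowest in the samples where most members were highest.

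Among the other pathway genes, 2 lay below ND in all HFD samples and did not overlap between the diets, or 3.9% of the 51, against 8.07% of all genes. *Hsc70-4*, the chaperone that strips clathrin from vesicles, stood at 968, 834 and 990 FPKM in HFD replicates 1 to 3, against 1034, 1005 and 1176 FPKM in ND replicates 1 to 3, with a log2 difference of -0.20 (SE 0.11, exact permutation p = 0.1, limma p = 0.106 unadjusted and 0.842 adjusted). *Rbcn-3A*, whose product helps to acidify vesicles, stood at 37.1, 35.9 and 36.2 FPKM in HFD replicates 1 to 3, against 38.8, 37.7 and 39.7 FPKM in ND replicates 1 to 3, with a log2 difference of -0.086 (SE 0.064, exact permutation p = 0.1, limma p = 0.226 unadjusted and 0.942 adjusted). Neither passed the test. The *Hsc70-4* difference was -0.13 without HFD replicate 2, -0.14 without ND replicate 3 and -0.058 without both. That of *Rbcn-3A* changed sign, to 0.011, when scaled to the neuron markers.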
